A study of Mus musculus with 3 samples.

Results

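Forkhead transcription factors are proteins that bind DNA through a winged-helix domain, and the mouse genes that encode them carry the symbol Fox followed by a letter for the subfamily and a number. The genes described here are those whose symbol has a subfamily letter from a to s, 1 or more digits and, where there is one, a last letter, and that had a probeset of their own on the array. This rule found 43 genes among 19938 genes with a probeset of their own. It used the symbol and the probe annotation and no measured value. Foxn3 and Foxf1 each had 2 probesets, and every gene was taken at the probeset with the higher mean signal.

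The samples were endothelial cells of the adult mouse kidney cortex, sorted by GFP from mice with the Tg(TIE2GFP)287Sato transgene, in which the promoter of Tek (Tie2), an endothelial receptor for angiopoietins, drives GFP. A sort on this reporter takes any cell that uses the promoter and does not separate arteries, capillaries and veins. There were 3 samples and 1 group, each sample from 1 kidney that was not pooled, on a mixed background that was mainly CD-1, with the sex recorded as unknown. The medulla had been cut away, and a 40 µm mesh had held back the glomeruli. All 3 samples carried the transgene and none had received a drug or a mutation, so that the group stands alone and each mean can be set only against a fixed level. The glomerular, medullary, embryonic and db/db cells of the study were not analysed here.

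Forkhead factors differ in what controls them. FoxO proteins are held in the cytoplasm when insulin and growth factors activate AKT, and they enter the nucleus and switch on genes of cell cycle arrest, antioxidant defence and sugar metabolism when AKT is quiet. FoxC and FoxF proteins shape vessels and mesenchyme in the embryo, FoxM1 drives genes of mitosis, FoxP proteins are mostly repressors, and Foxi1 and Foxj1 define particular epithelial cells. The messenger RNA level says nothing of where a FoxO protein lies in the cell.

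Signals are given on the deposited log2 scale. A linear signal of 100, the raw level that the study asked of a probeset in its own filter, is 6.64 on that scale. Each mean was tested one-sided against this level with limma, the p-values were adjusted by the Benjamini-Hochberg method over the 35557 probesets of the array, and a gene is called above or below at an adjusted p under 0.05. The probes of different genes bind with different strength, so the signal of 1 gene is not compared with that of another as an amount of RNA. In these sorted bulk samples, fewer cells of a type and less RNA per cell cannot be told apart. Each sample was 1 kidney, the study describes its samples as biologically independent, and the p-values measure the spread between these 3 where their values differ. For 25 of the 43 forkhead genes (58.1%) and 51.2% of all genes the 3 values were equal. Their p-values measure no spread between samples.

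The 3 columns were similar over the whole table, with medians of 5.70, 5.70 and 5.66 in replicates 1, 2 and 3 and pairwise Pearson correlations of 0.941 to 0.950 over the probesets, which are not independent replicates. Of 15 endothelial markers 14 were above the level, among them Tek at 10.55, 10.44 and 10.24 and Cdh5, the endothelial cadherin, at 10.62 in each sample, and Nos3 was called neither way. Tubule markers were present as well. Of 12 proximal tubule markers 10 were above, and the summed linear signal of the 12 was 18074.1, 15535.0 and 16608.7. Kap, an androgen-regulated proximal tubule gene in this sum, had a linear signal of 7459 at its mean log2 signal. The sum over the endothelial markers was 14885.5, 15340.7 and 12929.8. Sums over different probes are not compared with each other as amounts of cells or RNA. Of 9 thick limb and distal tubule markers 5 were above, 9 of 9 macrophage and blood markers were below, and 1 of 8 stromal, pericyte and smooth muscle markers, Rgs5, was above. Among all genes 22.9% were above and 65.0% below. The macrophage and blood count was 7 without replicate 1. The endothelial count was 9 without replicate 1, the proximal tubule count was 5 without replicate 3, the distal count was 0 without replicate 1 and 1 without replicate 3, and the Rgs5 call was lost without replicate 1 or 2. Of all probesets 40.5% had the same value in the 3 samples to all 5 decimals. The sources used here do not explain this, so equal values below are given as measured and not read as the absence of a difference between samples. Replicates 1 and 2 had the same value in 50.7% of probesets, and replicates 1 and 3 and replicates 2 and 3 each in 47.1%. Without replicate 3 most probesets thus had no spread, so the variance moderation is unreliable there. The fits without replicate 1 or 2 were close to this. Calls gained or lost when any replicate is left out are not firm. Calls with all samples can also move when equal values are given the median spread of the other probesets, as shown for Foxc2 and Foxj2 further on.

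Few forkhead genes reached the level. Of the 43 genes, 4 were above a signal of 100 (Foxn3, Foxo1, Foxp1 and Foxj2), 34 were below and 5 were called neither way (Foxc2, Foxo3, Foxj3, Foxe1 and Foxn2). Those above made up 9.3% of the forkhead genes, against 22.9% of all genes, and those below 79.1%, against 65.0% of all genes. Signals of 100 or more in every sample were found for 7 forkhead genes, namely the 4 that were called with Foxc2, Foxo3 and Foxj3, against 28.0% of all genes. Another 2, Foxe1 and Foxn2, passed the level in 1 sample each, and 34 did so in no sample. The median of the mean log2 signals was 5.80 over the forkhead genes and 5.88 over all genes, and the forkhead means ran between 3.90 and 10.02. Without replicate 1 the count above was 2, Foxn3 and Foxo1. With a limit of 50 in place of 100, 25 of the 43 forkhead genes were above and 16 below, against 51.3% and 40.5% of all genes. At that limit the forkhead share was thus larger above and smaller below than that of all genes. The contrast with all genes at 100 therefore depends on the limit. With a limit of 200, 1 was above and 40 were below, against 9.37% and 80.6% of all genes. Where the 3 values of a probeset were equal and it was given the median spread of the others, 4 were above and 31 below, against 21.1% and 62.2% of all genes.

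**Figure D1:**
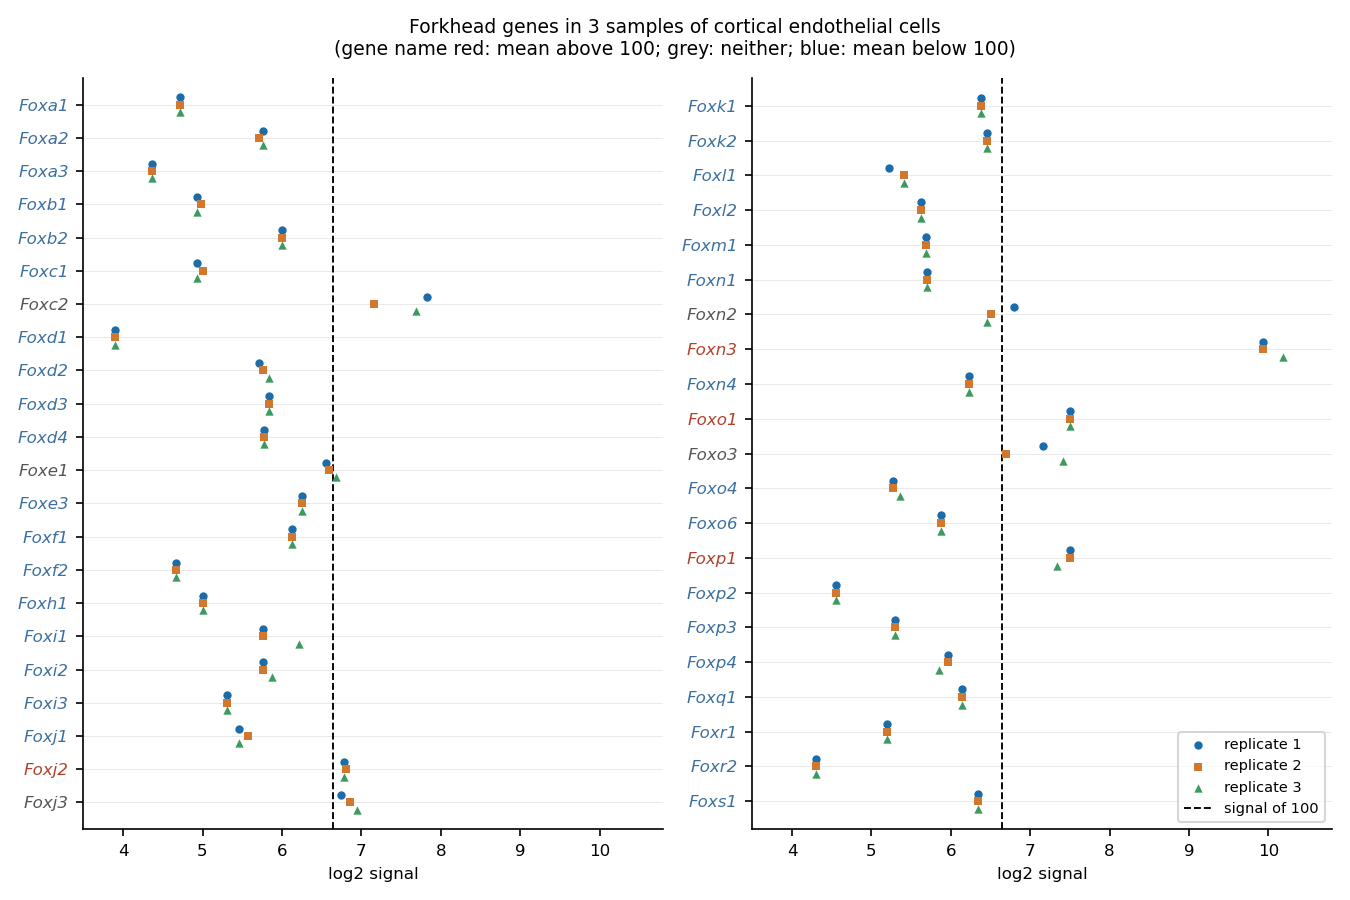
Log2 signal of the 43 forkhead genes in the 3 samples of cortical endothelial cells, with 1 point per sample, the genes in order of symbol, and name colours for the call (red above, grey neither, blue below). The dashed line marks a linear signal of 100 (6.64 on the log2 scale), and the points of 7 genes lie at or over it in every sample.

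The FoxO subfamily holds forkhead factors that answer to insulin, and its 4 genes lay on both sides of the level. Foxo1, which in mouse is needed for vessel formation in the embryo and restrains endothelial growth, measured 7.51 on the log2 scale in each of replicates 1, 2 and 3, a linear signal of 182. It was above the level with an adjusted p of 1.68e-06 by limma. It stayed above with each replicate left out, but its equal values fixed the same mean each time, so this is no check. Its 3 values were equal to all 5 decimals, so the fit had no spread of its own for this gene, and with the median spread of the other probesets in its place the adjusted p by limma was 0.00915. Foxo3, known for quiescence and survival of many cell types, had 7.16, 6.70 and 7.41, with a mean of 7.09 ± 0.36 (SD, n = 3). All 3 samples were over the level, but the spread was wide and the adjusted p by limma was 0.271. Foxo4, which in mouse acts in smooth muscle, was below at 5.28, 5.28 and 5.35, and Foxo6, a factor of brain and liver, was below at 5.88 in each sample.

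The promoter of Foxo1, the FoxO gene that was above the level, is given as the 250 bases before the outermost start of the gene in RefSeq (GRCm38.p6, chr3:52268087-52268336, plus strand), with CpG pairs in capitals.
Foxo1: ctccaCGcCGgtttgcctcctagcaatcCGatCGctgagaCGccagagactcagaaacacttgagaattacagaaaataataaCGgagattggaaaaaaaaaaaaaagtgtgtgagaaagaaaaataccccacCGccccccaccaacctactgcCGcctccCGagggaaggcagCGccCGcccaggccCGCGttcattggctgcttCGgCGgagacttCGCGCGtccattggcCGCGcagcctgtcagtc
The window holds 20 CpG pairs. Promoter sequences were at hand for 28 of the 43 forkhead genes and for 27025 genes in all, and the median number of CpG pairs was 16.5 in the forkhead promoters and 6 in all promoters. Among the forkhead genes above the level, Foxn3 had 5, Foxp1 had 11 and Foxj2 had 36. The median was 15.5 in the 4 promoters of forkhead genes above and 15.5 in the 22 promoters of those below.

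Genes that pass insulin and growth factor signals to FoxO proteins were mostly above the level. Of 11 measured regulators of this group 7 were above, 2 were below and 2 were called neither way, against 22.9% above and 65.0% below among all genes. The list was chosen with earlier results of these data known, so these counts are descriptions. Insr, the insulin receptor, had 9.98 in each sample and was above. Igf1r, the receptor for insulin-like growth factor, had 7.38, 7.20 and 7.37 and was above with an adjusted p of 0.0118 by limma, which was 0.125 without replicate 1 and 0.186 without replicate 3. The adaptor proteins of the insulin receptor lay on the other side, with Irs1 at 4.99 and Irs2 at 6.20 in each sample, both below. The kinases Akt1 and Akt2, which phosphorylate FoxO proteins, were above with means of 6.93 and 7.38. Sgk1, a related kinase, had the widest spread of this group at 8.19, 8.12 and 7.10, and its adjusted p by limma was 0.128 with all samples and 0.0392 without replicate 3. Pik3cb, a catalytic subunit of PI3K, had 7.45, 7.14 and 6.50 and was called neither way.

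Genes of the proteins that carry FoxO out of the nucleus or modify it were above in 9 of 13 cases, against 22.9% of all genes. Of the others 1 was below and 3 were called neither way. The 14-3-3 proteins, which bind phosphorylated FoxO, included Ywhab with a mean of 9.53, Ywhae with 11.10 and Ywhah with 10.47, all above. Ywhag, another 14-3-3 gene, had 7.15, 6.70 and 6.50 and was called neither way. Skp2, a part of the ubiquitin ligase that marks Foxo1 for degradation, was below at 5.76 in each sample. Sirt1, the deacetylase of FoxO proteins, had 6.82, 7.33 and 6.42, the widest spread of the group, and Mdm2 had 6.63, 6.63 and 6.46. Mdm2 was called neither way with all samples. Without replicate 3 it was below (adjusted p by limma 4.62e-15, from 2 equal values), in the fit where 50.7% of probesets had no spread.

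Genes that FoxO proteins are known to switch on did not share 1 level. Of 22 measured target genes 11 were above, 8 were below and 3 were called neither way, against 22.9% above and 65.0% below among all genes. Cdkn1b, the cell cycle inhibitor p27, was above at 9.07 in each sample. Ccng2, a cyclin of resting cells, was below at 5.78, and Bcl2l11, the cell death protein Bim, was below at 5.63, each with the same value in all 3 samples. Gadd45a, a gene of the DNA damage response, had the widest spread of the targets at 7.94, 7.47 and 8.24. It was above with an adjusted p of 0.0473 by limma, which was 0.292, 0.0933 and 0.272 without replicates 1, 2 and 3. Sesn3 had 6.62, 6.75 and 6.62, and both enzymes of glucose production that FoxO1 drives in liver were called neither way. G6pc had 6.98, 6.54 and 7.22, and Pck1 had 7.64, 7.08 and 7.72. Without replicate 2, Sesn3 was below (adjusted p by limma 0.00167), but from 2 equal values with no spread. Pck1 was above in that setting (adjusted p by limma 0.0357). G6pc and Pck1 are also used by proximal tubule cells, and like the proximal tubule markers, which deviated from their means by a median of 0.09, -0.14 and 0.06 in replicates 1, 2 and 3, they were lowest in replicate 2. The part of tubule RNA in these values was not tested. Among further targets, chosen after their values were seen, Klf2, a flow-responsive endothelial factor, was above at 7.59, S1pr1, a sphingosine receptor of endothelium, was above with a mean of 10.17, and Angpt2, a ligand of Tek that Foxo1 activates, was below at 6.31. The S1pr1 call was lost without replicate 2 (adjusted p by limma 0.0626).

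**Figure D2:**
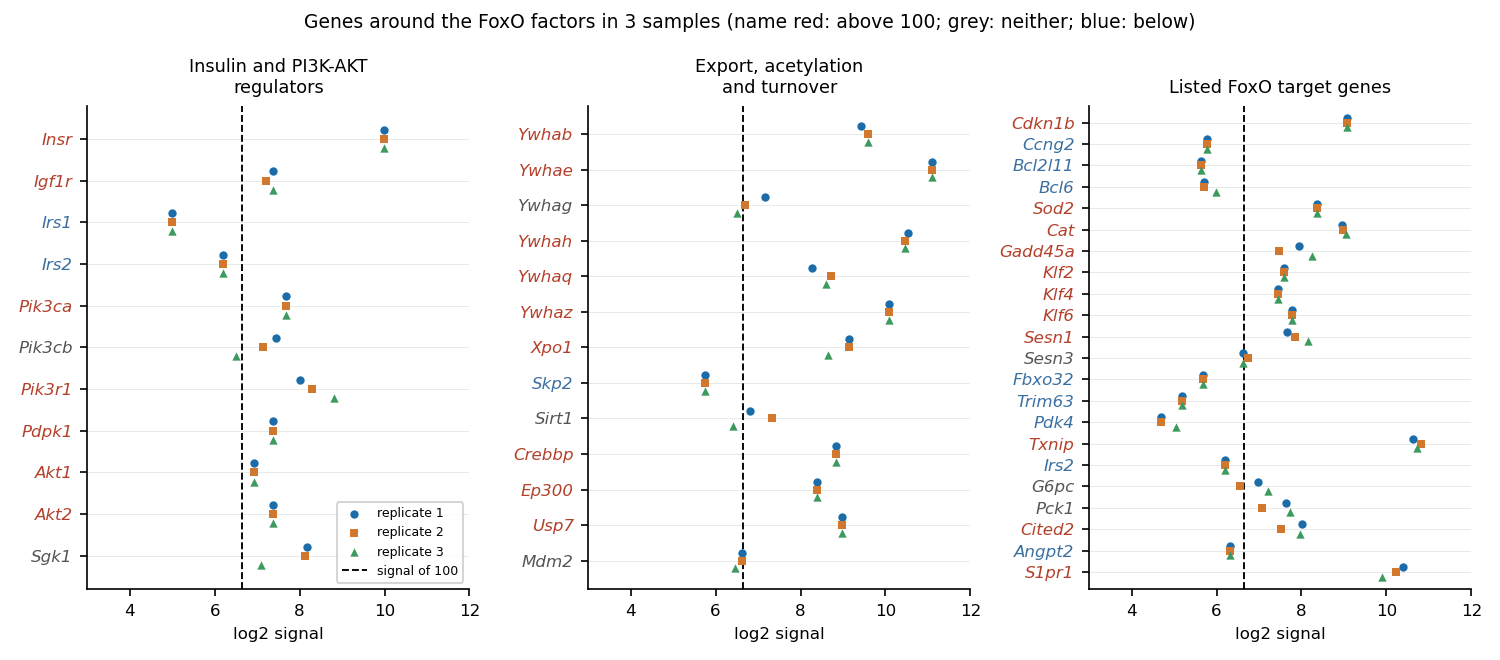
Log2 signal of genes around the FoxO factors in 3 samples, with insulin and PI3K-AKT regulators on the left, genes of FoxO export, acetylation and turnover in the middle and FoxO target genes on the right, and 1 point per sample. The dashed line is a signal of 100 (6.64), name colours give the call (red above, grey neither, blue below), and the target genes lie on both sides of the line, between Pdk4 at a mean of 4.81 and Txnip at 10.72.

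The core of the site that forkhead proteins bind, GTAAACA or its reverse TGTTTAC, was searched on both strands of the 250 bases before each start. It was in 828 of 27025 promoters, or 3.06%. Among the forkhead promoters it was in 1 of 28, that of Foxa1, and among FoxO targets in 3 of 19 (Txnip, Bcl2l11 and Trim63). It was also in 1 of 10 promoters of the insulin and PI3K-AKT regulators (Akt1), 1 of 11 of the export, acetylation and turnover group (Mdm2), 1 of 11 of the FoxP corepressors (Ctbp2), 1 of 8 of the intercalated cell genes (Atp6v1b1) and 1 of 8 of the distal tubule markers (Slc12a1). The other groups had 0. The windows of the FoxO targets are shown because the 3 genes that share these letters were not on the same side of the level, and those of Akt1 and Foxa1 as a regulator and a forkhead gene that hold them. The capitals mark the motif, each run reads along the strand of its gene in GRCm38.p6, and the positions are chr3:96557825-96557853 (plus) for Txnip, chr2:128125800-128125828 (plus) for Bcl2l11, chr4:134314915-134314943 (plus) for Trim63, chr12:112675028-112675056 (minus) for Akt1 and chr12:57546235-57546263 (minus) for Foxa1.
Txnip: ttggaggcctgGTAAACAagggccaagta
Bcl2l11: aagacactaggGTAAACAcgccggggtgg
Trim63: cagtctgttctTGTTTACgacccccacgg
Akt1: atctaccctctTGTTTACactcctggtga
Foxa1: tatactgctttGTAAACAaagtgagggcc
The motif begins 121 bases before the start of Txnip, a regulator of thioredoxin, which was above at 10.72 ± 0.08 (SD, n = 3) with an adjusted p of 0.00024 by limma. It lies 227 bases before the start of Bcl2l11, which was below at 5.63, and 194 bases before that of Trim63, a muscle ubiquitin ligase, which was below at 5.17. The window of Akt1, at 161 bases, belongs to a regulator that was above, and that of Foxa1, at 141 bases, to a forkhead gene that was below. A match is a description of the letters and not a measured binding site.

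The FoxC and FoxF genes are the forkhead factors best known for blood vessels and for the tissue around them. Foxc2, which in mouse acts in arteries, in lymphatic valves and also in podocytes, had 7.82, 7.16 and 7.69, with a mean of 7.56 ± 0.35 (SD, n = 3). Every sample was over the level, and the adjusted p by limma was 0.071, so that it was called neither way. It was above with an adjusted p by limma of 0.0326 after quantile normalization of the columns, of 0.0359 after a shift to the same median, of 0.0341 over probesets with a mean of 50 or more, and of 0.0241 with equal values given the spread of the others. It was called neither way without a variance trend (0.0724) and with genes at the mean of their probesets (0.074). Against a limit of 50 it was above (0.00833), and against 200 its mean was lower by log2 (-0.09) and called neither way. With a replicate left out, the adjusted p was 0.313, 0.0567 and 0.443 without replicates 1, 2 and 3. Its relative Foxc1, which shares vessel roles with Foxc2 in mouse embryos, was below at 4.93, 5.01 and 4.93.

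Foxf1, a factor of mesenchyme and of lung endothelium, was below at 6.13 in each sample, and its other probeset was below at 5.01 in each. Foxf2, known from pericytes of the brain, was below at 4.67 in each sample. Foxq1 was below at 6.14 in each, and Foxl1, a factor of gut mesenchyme, at 5.23, 5.41 and 5.41. These genes lie in 2 clusters of the genome. On chromosome 13, Foxq1, Foxf2 and Foxc1 follow each other with 0 protein-coding genes between neighbours in the RefSeq gene table, and all 3 were below. On chromosome 8, Foxf1 and Foxc2 have 1 protein-coding gene between them and Foxc2 and Foxl1 have 0, and of these 3 genes only Foxc2 had a sample over the level.

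Podocytes, the other kidney cell known for Foxc2, were not seen through most of their markers. Of 4 measured podocyte markers, Podxl, which endothelial cells also use, was above at 9.26 in each sample, and Nphs1 at 6.10, Synpo at 5.92 and Wt1 at 5.41 were below. Their summed linear signal was 785.0 in each of the 3 samples, most of it from Podxl. Foxc2 was lowest in replicate 2, as was the median deviation of the thick limb and distal tubule markers (0.13, -0.30 and 0.17 in replicates 1, 2 and 3). The same held for the proximal tubule markers (0.09, -0.14 and 0.06), the stromal, pericyte and smooth muscle markers (-0.18, -0.30 and 0.55) and the intercalated cell genes (0.01, -0.02 and 0.0). The endothelial markers were lowest in replicate 3 (-0.02). The part of tubule cells, stromal cells or podocytes in the Foxc2 values was not tested.

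Genes of arteries and lymphatic vessels that FoxC proteins are tied to were split. Of 14 measured genes 6 were above, 7 were below and 1 was called neither way, against 22.9% above and 65.0% below among all genes. Dll4, a Notch ligand of arteries that FoxC proteins activate, had 7.24, 7.19 and 7.24 and was above, and so were Notch1 and Notch4 with means of 7.54 and 7.30. Gja4, a connexin of arterial endothelium, had 9.15, 8.75 and 9.12, the widest spread of the group, and was above. Hey1, a target of Notch, had 7.41, 7.18 and 7.05 and was called neither way. Lymphatic genes, chosen after their values were seen, were below, with Prox1 at a mean of 4.39, Flt4 at 6.39 and Lyve1 at 5.75, and with the spread of other probesets given to equal values the count below was 4, the calls of Hes1, Nfatc1 and Flt4 being lost (adjusted p by limma 0.688, 0.154 and 0.0753). Leaving out replicate 1 or replicate 3 brought the count above to 3. The call was lost for Dll4 without replicate 3 (adjusted p by limma 0.0756), for Notch1 without replicate 1 or 2 (0.0814 and 0.08), for Notch4 without replicate 1, 2 or 3 (0.0507, 0.114 and 0.227) and for Gja4 without replicate 1 or 3 (0.0767 and 0.128).

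The Hedgehog pathway, which switches on FoxF genes in embryonic mesenchyme, was below in 8 of 9 measured genes, against 65.0% of all genes. The ligands Shh at 5.99, Ihh at 6.37 and Dhh at 5.84 had the same value in all 3 samples and were below. With the spread of other probesets given to equal values the count below was 6. The calls of Ihh and Gli1 were then lost (adjusted p by limma 0.0617 and 0.0783). Ptch1, the receptor of these ligands and itself a target of the pathway, had 6.94, 7.07 and 7.07 and was above with an adjusted p of 0.018 by limma. That call was lost without replicate 2 (0.158) or replicate 3 (0.222), which left 0 genes of the group above.

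Foxn3, a repressor tied to cell cycle checkpoints, had 9.93, 9.93 and 10.18, with a mean of 10.02 ± 0.14 (SD, n = 3), a linear signal of 1035. It was above with an adjusted p of 0.00103 by limma, and it was the only forkhead gene above with a limit of 200. Its other probeset had 6.30 in each sample and was below (adjusted p by limma 8.65e-08), so that the 2 probesets of this gene disagree. Replicate 3 was the highest at the brighter probeset, and the dimmer one had equal values. Of its relatives, Foxn2, named for binding a viral enhancer, had 6.80, 6.51 and 6.46 and was called neither way, with an adjusted p for below of 0.45 by limma and of 0.0469 without replicate 1. Foxn1, the factor of thymic epithelium that nude mice lack, was below at 5.70, and Foxn4, known from the developing retina, was below at 6.22, each the same in all samples.

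Foxp1, a repressor of lymphoid cells and heart that endothelial cells also express, had 7.51, 7.51 and 7.34, with a mean of 7.45 ± 0.10 (SD, n = 3). It was above with an adjusted p of 0.00734 by limma, which was 0.0987 without replicate 1 and 0.097 without replicate 2. Its value in replicates 1 and 2 was equal to that of Foxo1 in all 5 decimals, 7.50557, a value that 5, 11 and 7 probesets of the table shared in replicates 1, 2 and 3. The other genes of the subfamily were below, with Foxp2, the gene of speech and motor learning, at 4.55, Foxp4 at 5.96, 5.96 and 5.85, and Foxp3 at 5.30. Foxp3, the defining factor of regulatory T cells, had the same value in each sample, and all 10 measured T cell markers were below as well, with Cd3e at 5.88, Cd3g at 3.81, Cd4 at 5.34 and Cd8a at 5.96. The count of T cell markers below was 9 without replicate 1 or 2. Among all genes the share below with all samples was 65.0%.

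Genes of corepressors that FoxP proteins recruit were above in 9 of 12 cases, against 22.9% of all genes. The count above was 5 without replicate 3. Ctbp1 had 7.71, 7.52 and 7.31 and was above, a call that was lost without replicate 1, 2 or 3 (adjusted p by limma 0.128, 0.213 and 0.139). Ctbp2 was above at 7.04 in each sample, and with the spread of other probesets its adjusted p by limma was 0.0727. Of the 2 related NuRD subunits, Gatad2b was above with a mean of 8.59 and Gatad2a was below with a mean of 6.06. Hdac2, a histone deacetylase, had the widest spread at 9.45, 9.85 and 8.55, and its adjusted p of 0.0319 by limma was 0.236, 0.176 and 0.103 without replicates 1, 2 and 3. Mbd3 had 7.34, 6.62 and 6.62 and Rbbp4 had 7.04, 7.46 and 7.29, and both were called neither way. Mbd3 was below without replicate 1 (adjusted p by limma 0.00172), but from 2 equal values with no spread.

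Foxj2 and Foxj3 are widely expressed factors of which little is tied to vessels. Foxj2 had 6.78, 6.80 and 6.78, a mean of 6.78 ± 0.01 (SD, n = 3) and a linear signal of 110, just over the level. It was above with an adjusted p of 0.00512 by limma, and the call was lost without replicate 1 (0.0774), without replicate 3 (0.122) and with the spread of other probesets given to those of equal values (0.249). Foxj3, a regulator of Mef2c in mouse muscle, had 6.75, 6.86 and 6.94 and a mean of 6.85 ± 0.10 (SD, n = 3), with all 3 samples over the level and an adjusted p of 0.106 by limma. Foxj1, the master factor of motile cilia, was below at 5.46, 5.57 and 5.46. All 11 measured genes of motile cilia were below, with Dnaic1 at 4.92, Dnah5 at 4.56 and Dnah9 at 5.48 in every sample. Rsph1 had the widest spread of them, and its call was lost without replicate 3 (adjusted p by limma 0.101). The call of Mcidas was lost without replicate 2 (0.109) or replicate 3 (0.157), so that the count below was 10 and 9 in these settings. Among all genes the share below with all samples was 65.0%.

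The FoxK genes, which repress autophagy genes and favour glycolysis, were close to the level from below. Foxk1 had 6.38 and Foxk2 had 6.46 in each sample. Both were below, with adjusted p of 1.95e-07 and 5.01e-07 by limma, and neither call held with the median spread of other probesets in place of the equal values (0.0673 and 0.134). Of 7 measured partners, 3 were above, 3 were below and 1 was called neither way, against 22.9% above and 65.0% below among all genes. Bap1, the deubiquitinase that FoxK proteins bring to DNA, had 7.33, 7.33 and 7.43, Ogt had a mean of 9.07 and Hcfc1 had 7.49, and all 3 were above. Asxl1 at 6.52, Kdm1b at a mean of 5.68 and Mbd6 at 6.27 were below. Asxl2 had 7.40, 6.72 and 7.91, the widest spread of the group, and was called neither way. Leaving out replicate 1 or replicate 2 brought the count above to 1, when the calls of Bap1 (adjusted p by limma 0.0646 and 0.0634) and Ogt (0.106 and 0.103) were lost. The Asxl1 call was lost with the spread of other probesets (0.256).

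Foxm1, the forkhead factor of dividing cells, was below at 5.69 in each sample, and so were most genes it drives. Of 13 measured targets 0 were above by limma, also at an unadjusted p under 0.05, and 11 were below. Among all genes 22.9% were above and 65.0% below. Ccnb2, a mitotic cyclin, was at 5.50, Cdc25b at 5.83 and Plk1, a mitotic kinase, at 4.53 in every sample. The 2 that were called neither way were Cenpa, a centromere histone, at 6.08, 6.08 and 6.79, and Birc5, an inhibitor of apoptosis with a role in mitosis, at 6.32, 6.01 and 6.93. Both were highest in replicate 3 and passed the level there alone. Foxm1 itself had equal values. Cenpa was below without replicate 3 (adjusted p by limma 1.55e-17, from 2 equal values), in the fit where 50.7% of probesets had no spread.

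Foxi1, the factor that defines intercalated cells of the collecting duct, was below at 5.77, 5.77 and 6.22, with a mean of 5.92 ± 0.26 (SD, n = 3) and an adjusted p of 0.0215 by limma. It was highest in replicate 3, and the adjusted p was 0.115 without replicate 1 and 0.115 without replicate 2. Of 12 measured genes of intercalated cells 2 were above, 7 were below and 3 were called neither way, against 22.9% above and 65.0% below among all genes. Atp6v0a4, a proton pump subunit, was above at 7.83 in each sample, and Slc4a9, a bicarbonate transporter, was just above at 6.76, a call that was lost with the spread of other probesets (adjusted p by limma 0.665). Atp6v1b1, another pump subunit that Foxi1 activates, had 6.63, 6.57 and 6.57 and was called neither way with all samples. Without replicate 1 it was below (adjusted p by limma 0.000378), but from 2 equal values with no spread. Slc4a1, the anion exchanger of acid-secreting cells, had 6.49, 6.29 and 6.49 and was below, a call that was lost without replicate 1 (0.129), replicate 3 (0.167) or with the spread of other probesets (0.0504). Car12 had 6.80, 6.52 and 7.19, and Rhbg, which had the widest spread, had 6.69, 5.93 and 6.69. Both were lowest in replicate 2, whereas Foxi1 was equal in replicates 1 and 2. Rhbg was above without replicate 2 (adjusted p by limma 0.00409), but from 2 equal values with no spread. The summed linear signal of the 12 genes was 1002.9, 914.1 and 1028.6 in replicates 1, 2 and 3, and its part in the Foxi1 values was not tested.

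The promoter of Foxi1 is shown as an example with few CpG pairs, 4 in 250 bases, and the medians given above did not differ between forkhead genes above and below the level. It is chr11:34208090-34208339 on the minus strand of GRCm38.p6, read along the gene, with CpG pairs in capitals.
Foxi1: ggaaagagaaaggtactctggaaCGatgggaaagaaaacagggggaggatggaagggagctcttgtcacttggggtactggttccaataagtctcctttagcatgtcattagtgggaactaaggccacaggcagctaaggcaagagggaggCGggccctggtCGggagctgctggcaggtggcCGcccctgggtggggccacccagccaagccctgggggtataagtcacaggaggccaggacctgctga
Its GC content was 58.8%, against 56.0% for Foxo1, so the 2 windows differ in CpG pairs more than in the share of G and C.

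Foxd1, which marks the progenitors of kidney stroma and pericytes in the mouse embryo, was below at 3.90 in each sample. Markers of the adult cells that descend from them differed between samples. The summed linear signal of 8 stromal, pericyte and smooth muscle markers was 1643.4, 1650.3 and 3518.3, with replicate 3 the highest, and its part in the forkhead values was not tested. Acta2, smooth muscle actin, had 8.43, 7.97 and 9.50, and Tagln had the widest spread at 6.41, 6.78 and 8.08. Foxs1, known from vessel walls, was below at 6.35 in each sample, and its adjusted p by limma was 0.0501 with the spread of other probesets. Foxd2, Foxd3, a factor of neural crest, and Foxd4 were below with means of 5.77, 5.84 and 5.77.

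The remaining forkhead genes are known from other organs, and all but 1 were below. Foxe1, a thyroid factor, had 6.56, 6.59 and 6.68 and was called neither way, with a mean of 6.61 ± 0.06 (SD, n = 3) and only replicate 3 over the level. Foxe3, a lens factor and the neighbour of Foxd2 on chromosome 4, was below at 6.25 in each sample. The FoxA genes, which open chromatin in liver and gut endoderm, had means of 4.72 for Foxa1, 5.75 for Foxa2 and 4.36 for Foxa3. Foxh1, a partner of Smad proteins in Nodal signalling, had 5.01 in each sample, and Foxl2, a factor of ovarian granulosa cells, had 5.63. Foxb1, Foxi2, Foxi3, Foxr1 and Foxr2 had means between 4.30 and 5.80, and Foxb2 had a linear signal of 64.0.

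**Figure D3:**
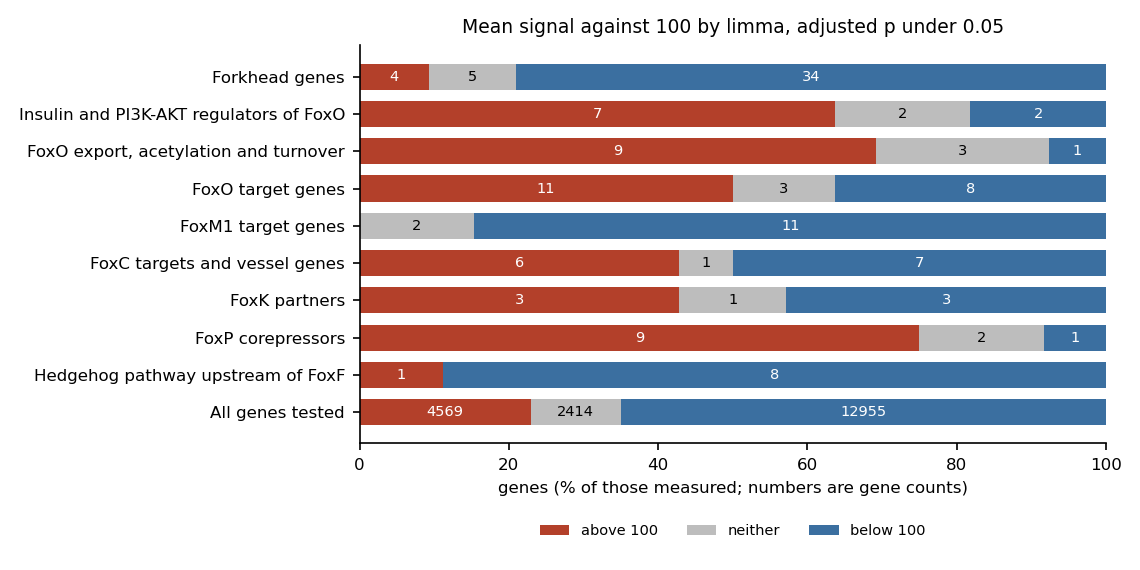
Share of genes called above, called below or called neither way by limma against a signal of 100, in percent of the measured genes, for the forkhead genes, the 8 related gene groups and all genes, with the number of genes written in each bar. The forkhead genes had 9.3% above and 79.1% below, against 22.9% and 65.0% of all genes.

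Over the 8 related gene groups together, with each gene counted once, 46 of 100 measured genes were above and 40 were below. The shares of all genes were 22.9% above and 65.0% below. Leaving out a replicate gave 32 to 34 genes of these groups above. The forkhead genes themselves had 4 of 43 above. The groups were chosen for genes that are widely used in cells as well as for genes of particular tissues, and the counts are descriptions.

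The 3 values were not all equal for 18 forkhead genes. The SD over the 3 samples was at most 0.36 on the log2 scale, reached by Foxo3, and Foxc2 at 0.35 and Foxi1 at 0.26 came next. Foxo3 and Foxc2 were both lowest in replicate 2, and Foxi1 and Foxn3 were highest in replicate 3. Of the 43 genes 25, or 58.1%, had 3 values that were equal to all 5 decimals, against 51.2% of all genes. Among those below the level the share was 70.6% for forkhead genes and 65.8% for all genes. Replicates 1 and 2 had equal values for 31 forkhead genes, replicates 1 and 3 for 30 and replicates 2 and 3 for 26. In single samples 8, 7 and 8 forkhead genes had a signal of 100 or more. For these equal values the fit had no measured spread, and the small adjusted p of the 24 genes below with 3 equal values rests on the moderation of the variance and the distance from the level.

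**Figure D4:**
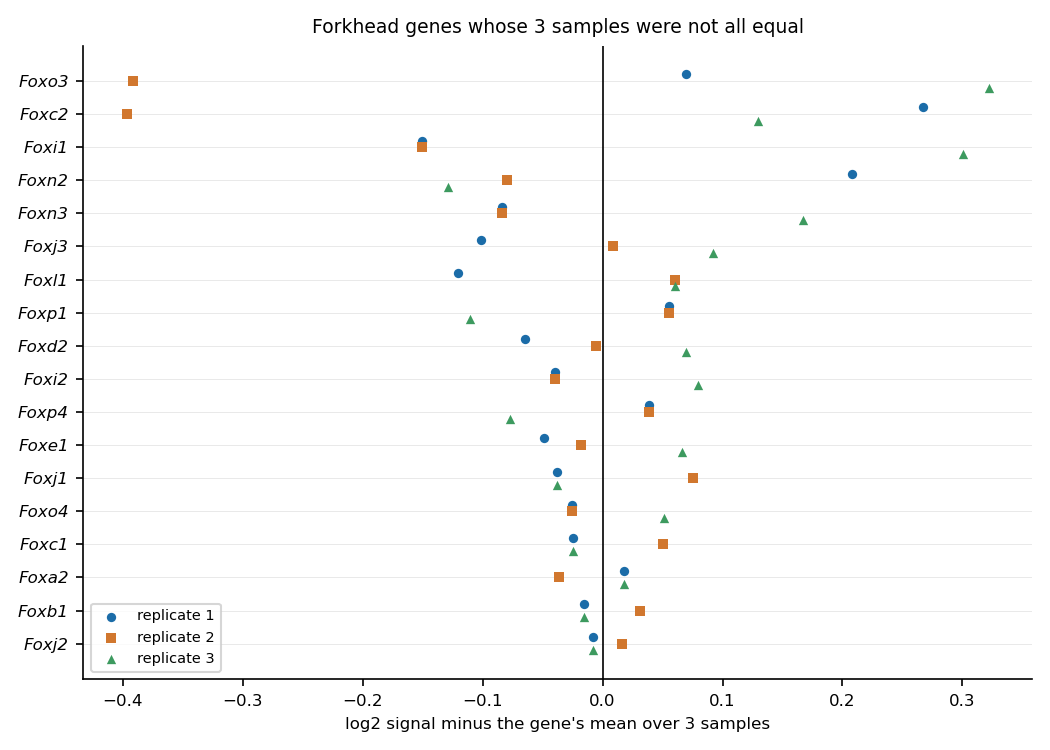
Deviation of the log2 signal in each of the 3 samples from the mean of that gene, for the 18 forkhead genes whose 3 values were not all equal, with 1 point per sample. Foxo3 and Foxc2 show their lowest value in replicate 2 and Foxi1 its highest in replicate 3, and the 25 genes with equal values are not drawn.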

How the data were processed

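Cortex tissue was digested in 1% collagenase for 5 min and, after sieving, in trypsin for 5 min before the sort. The RNA of the sorted cells, amplified in 1 round, was read on Affymetrix Mouse Gene 1.0 ST arrays. The authors deposited log2 signals, summarised per probeset and normalized. For this step RMA in GeneSpring is named in the paper and Affymetrix Expression Console in the submitters' processing notes. Which arrays were normalized together is not given there. No value was missing.

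The probe annotation gave 21789 probesets 1 gene, 1621 several and 12147 none, and all 35557 were fitted. With limma 3.58.1 (R 4.3.3), an intercept-only model of log2 signal minus the log2 of 100 was fitted with a variance trend, on 2 residual and 0.297 prior degrees of freedom. An exact test on 3 samples cannot go below a one-sided p of 0.125. Tables were made with pandas 2.3.3 and numpy 2.4.6 in Python 3.11.15.

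The 17 gene lists hold 201 genes, of which 11 had no probeset of their own. They and the forkhead genes were chosen with earlier results of these data known. Values per sample are given for forkhead genes that were above, that reached 100 in a sample, or that are known from vessels, stroma, tubules, T cells or the cell cycle. From each list up to 4 genes in the order written, counts of 5 or fewer and the gene with the largest SD are named, and not every such gene is reported. Coordinates are given only for RefSeq promoters (GRCm38.p6), since no build is named for the signals. The alternatives were other limits, normalizations, variance models and probeset rules, a filter on dim probesets, and leaving out each replicate.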

Additional observations from a re-analysis of the deposited data

How the results depend on the processing

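With a limit of 50 in place of 100, 25 forkhead genes were above and 16 below, 27 reached the limit in every sample, 10224 of all genes were above and 8066 below, and 80 genes of the related groups were above. With a limit of 200, 1 forkhead gene was above and 1 reached it in every sample, 1869 of all genes were above, and 23 of the related groups were above. Leaving out a replicate gave 2 to 3 forkhead genes above, 33 to 34 below and 7 to 7 in every sample, 3320 to 3418 of all genes above and 12402 to 12488 below, and 32 to 34 of the related groups above. Of these fits, that without replicate 3 had no spread for 50.7% of probesets, and those without replicate 1 or 2 for 47.1% each. With quantile normalization, a shift to the same median or a filter on probesets under 50, 5 forkhead genes were above, Foxc2 being added. Without a variance trend or with the mean of a gene's probesets, 4 were above. With the spread of other probesets given to equal values 4 were above and 31 below, with Foxc2 gained and Foxj2 lost above, and Foxk1, Foxk2 and Foxs1 lost below.

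The mean log2 signal minus the limit changed sign with a limit of 50 for 20 forkhead genes, to 0.1 for Foxa2, 0.36 for Foxb2, 0.13 for Foxd2, 0.2 for Foxd3, 0.13 for Foxd4, 0.97 for Foxe1, 0.61 for Foxe3, 0.48 for Foxf1, 0.27 for Foxi1, 0.16 for Foxi2, 0.74 for Foxk1, 0.81 for Foxk2, 0.04 for Foxm1, 0.06 for Foxn1, 0.94 for Foxn2, 0.58 for Foxn4, 0.23 for Foxo6, 0.28 for Foxp4, 0.5 for Foxq1 and 0.7 for Foxs1. With a limit of 200 it changed sign for 6, to -0.09 for Foxc2, -0.86 for Foxj2, -0.8 for Foxj3, -0.14 for Foxo1, -0.56 for Foxo3 and -0.19 for Foxp1. For Foxn2 it was -0.16 without replicate 1, when it was called below, and 0.01 without replicate 3. The signs follow from where each mean lies relative to the limit. No paired analysis was possible because there is 1 group. With 3 arrays, 1 group and many equal values, precision is limited by the number of arrays, and the low signals have no measured background to be set against.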
